A study of Mus musculus with 12 samples.

Results

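The 47 genes described here build the machinery that copies DNA, or time its start at the G1/S boundary of the cell cycle. They were chosen by name, as a list of replication and G1/S genes, and not by a cutoff on their measured values. Earlier results of these data were known when they were chosen. Each of the 47 symbols matched 1 identifier among the 55335 in the count tables. RNA was sequenced from CT26, 1 established mouse colorectal cancer line labelled as wild type, in culture and as tumors under the skin. The 12 libraries form 4 groups of 3: cells given the solvent DMSO, cells given midostaurin, an inhibitor of several kinases, at 1 µM for 48 h, tumors given vehicle, and tumors given midostaurin at 40 mg/kg from day 7 after inoculation, for 2 weeks. The host strain, its sex and age, and whether replicates are different cultures or animals are not given in the sources used here, so p-values measure the spread between these libraries, which may be technical. The treated tumors are called 2, 3 and 4, as their table columns are, although the labels number them 1 to 3, so that no label carries the number 4.

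DNA replication is licensed in G1, when the origin recognition complex, Cdc6 and Cdt1 load the ring-shaped MCM2-7 helicase onto DNA. In S phase the helicase is activated by Cdc45, the GINS complex and Mcm10, and polymerases, a sliding clamp with its loader, and a single-strand binding protein copy both strands. Cyclin E with its kinase releases E2F transcription factors from the retinoblastoma protein, and E2F factors drive many replication genes, so that transcripts of this set are widely used as a readout of proliferation.

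Because E2F factors bind short GC-rich sites near the starts of such genes, the promoters of the members with the most matches to an E2F-type sequence are shown, all 4 of them MCM2-7 subunits. Windows of 300 bases, from 250 before to 50 after the start, were taken from RefSeq (GRCm38.p6, the reference of the mm10 build). The search used TTTCCCGC, TTTCGCGC, TTTGCCGC and TTTGGCGC on both strands, with overlapping matches counted separately. Capitals mark the matches, and each window is written 5′ to 3′ on the strand of its gene. Rfc3, a clamp loader subunit, has 2 matches too, the same number as Mcm3, Mcm5 and Mcm7, and is not printed.
Mcm6, chr1:128359656-128359955, minus strand: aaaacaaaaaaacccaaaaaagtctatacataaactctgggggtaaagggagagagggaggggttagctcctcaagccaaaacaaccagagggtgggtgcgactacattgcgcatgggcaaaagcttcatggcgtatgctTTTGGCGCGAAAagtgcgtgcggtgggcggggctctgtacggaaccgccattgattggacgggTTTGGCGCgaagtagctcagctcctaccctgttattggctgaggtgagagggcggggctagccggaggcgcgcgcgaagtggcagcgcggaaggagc
Mcm3, chr1:20820263-20820562, minus strand: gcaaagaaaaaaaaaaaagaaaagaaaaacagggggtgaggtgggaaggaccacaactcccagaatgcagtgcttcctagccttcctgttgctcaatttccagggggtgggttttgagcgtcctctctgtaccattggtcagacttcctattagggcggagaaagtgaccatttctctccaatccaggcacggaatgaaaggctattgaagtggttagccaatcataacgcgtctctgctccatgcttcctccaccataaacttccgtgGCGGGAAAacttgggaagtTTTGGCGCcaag
Mcm5, chr8:75109259-75109558, plus strand: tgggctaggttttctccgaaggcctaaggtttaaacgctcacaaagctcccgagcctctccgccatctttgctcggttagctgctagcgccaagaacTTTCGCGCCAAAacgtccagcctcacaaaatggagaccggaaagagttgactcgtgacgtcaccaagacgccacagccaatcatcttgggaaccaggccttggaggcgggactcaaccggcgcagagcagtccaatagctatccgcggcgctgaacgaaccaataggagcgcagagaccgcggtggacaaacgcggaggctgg
Mcm7, chr5:138171834-138172133, minus strand: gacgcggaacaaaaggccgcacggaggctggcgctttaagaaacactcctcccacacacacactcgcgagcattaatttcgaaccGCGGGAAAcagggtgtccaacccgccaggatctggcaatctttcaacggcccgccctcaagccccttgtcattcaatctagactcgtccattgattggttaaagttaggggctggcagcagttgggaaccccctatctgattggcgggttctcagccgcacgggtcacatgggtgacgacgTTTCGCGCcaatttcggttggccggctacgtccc
The 3 matches of Mcm6 include an overlapping pair, as do the 2 of Mcm5, where 1 run of capitals holds both. Both matches of Mcm3 lie in the 50 bases after its start. Of the 47 members, 38 had a window in the RefSeq table, 44 windows in all. An E2F-type match stood in 15 of the 44 windows (34.1%), each of a different member, against 2.26% of all 32851 windows. Of 28 mitosis genes, used below for comparison, 24 had a window, and of their 25 windows 1 held a match (4.00%). The bases G and C made up a median of 61.3% of a member's window, 52.7% of all windows and 59.0% of the mitosis windows. The CCAAT box (CCAAT, both strands) was in 56.8% of the members' windows, 37.4% of all and 84.0% of the mitosis windows, and the CHR element of mitotic promoters (TTTGAA, both strands) in 11.4%, 17.9% and 76.0%. The other members with an E2F-type match were Cdc6, Cdt1, Gins3, Lig1, Orc1, Pola1, Pold1, Pold3, Pole2 and Uhrf1. A match is a run of letters, and binding was not measured.

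Some libraries stood apart before any treatment was compared. In the cells, both libraries numbered 1 lay at -50.9 and -51.0 on the first principal component, which held 79.2% of the variance, while those numbered 2 and 3 lay at 24.7 to 26.3. In the tumors, midostaurin tumor 3 held 702 CPM of 8 summed neutrophil markers against 19.1 to 60.7 in the other 5, vehicle tumor 1 held 1955 CPM of 5 red cell transcripts against 16.6 to 447 elsewhere, and vehicle tumor 2 held 718 CPM of 5 keratinocyte genes against 1.48 to 1.76. CPM is a gene's count scaled to the same total in every library, with TMM factors. The libraries held 33399701 to 48109497 counts, of which the 47 members took 0.267% to 0.478%. Of 12 colon epithelial markers, Epcam, Krt19 and Cdx1 were at 0 in all 6 cell libraries and Cdh1 was at 0 in 5 of them, while Krt18 measured 23.2 to 30.2 CPM and Krt20 9.87 to 54.3 CPM.

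Levels can be compared only roughly between genes once divided by the length of their exons, here the union over all annotated transcripts. The transcripts expressed may be shorter than that union, to a degree that differs between genes. On the scale of CPM per kb of exon, Pcna, the sliding clamp that holds polymerases on DNA, was the most abundant member, at 103 ± 11.4 in DMSO cells and 126 ± 17.9 in vehicle tumors (mean ± SD, n = 3 each). Orc1, the largest subunit of the origin recognition complex, was the least abundant, at 2.73 ± 0.133 and 1.93 ± 0.3997. The 6 MCM2-7 subunits, which form a ring with 1 copy of each, lay within 2.37-fold of each other in DMSO cells and within 2.31-fold in vehicle tumors, with Mcm7 highest in both (52.5 ± 12.7 and 55.4 ± 7.003). Over all 47 members the ratio of highest to lowest was 37.5 in DMSO cells and 65.3 in vehicle tumors, and the median level 13.5 and 15.7 CPM per kb. Rrm2, the small subunit of ribonucleotide reductase, which makes deoxynucleotides, measured 46.7 ± 7.43 and 59.5 ± 9.74. Tyms, thymidylate synthase, measured 5.79 ± 3.04 and 9.07 ± 0.951. Cdc6 and Cdt1, the loading factors of the helicase, differed in level, with 3.003 ± 1.001 for Cdc6 and 30.9 ± 7.15 for Cdt1 in DMSO cells. Some reads of Pcna may be shared with its copy Pcna-ps2, which had 400 to 810 counts per library, so the level of Pcna is uncertain to that extent.

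**Figure D1:**
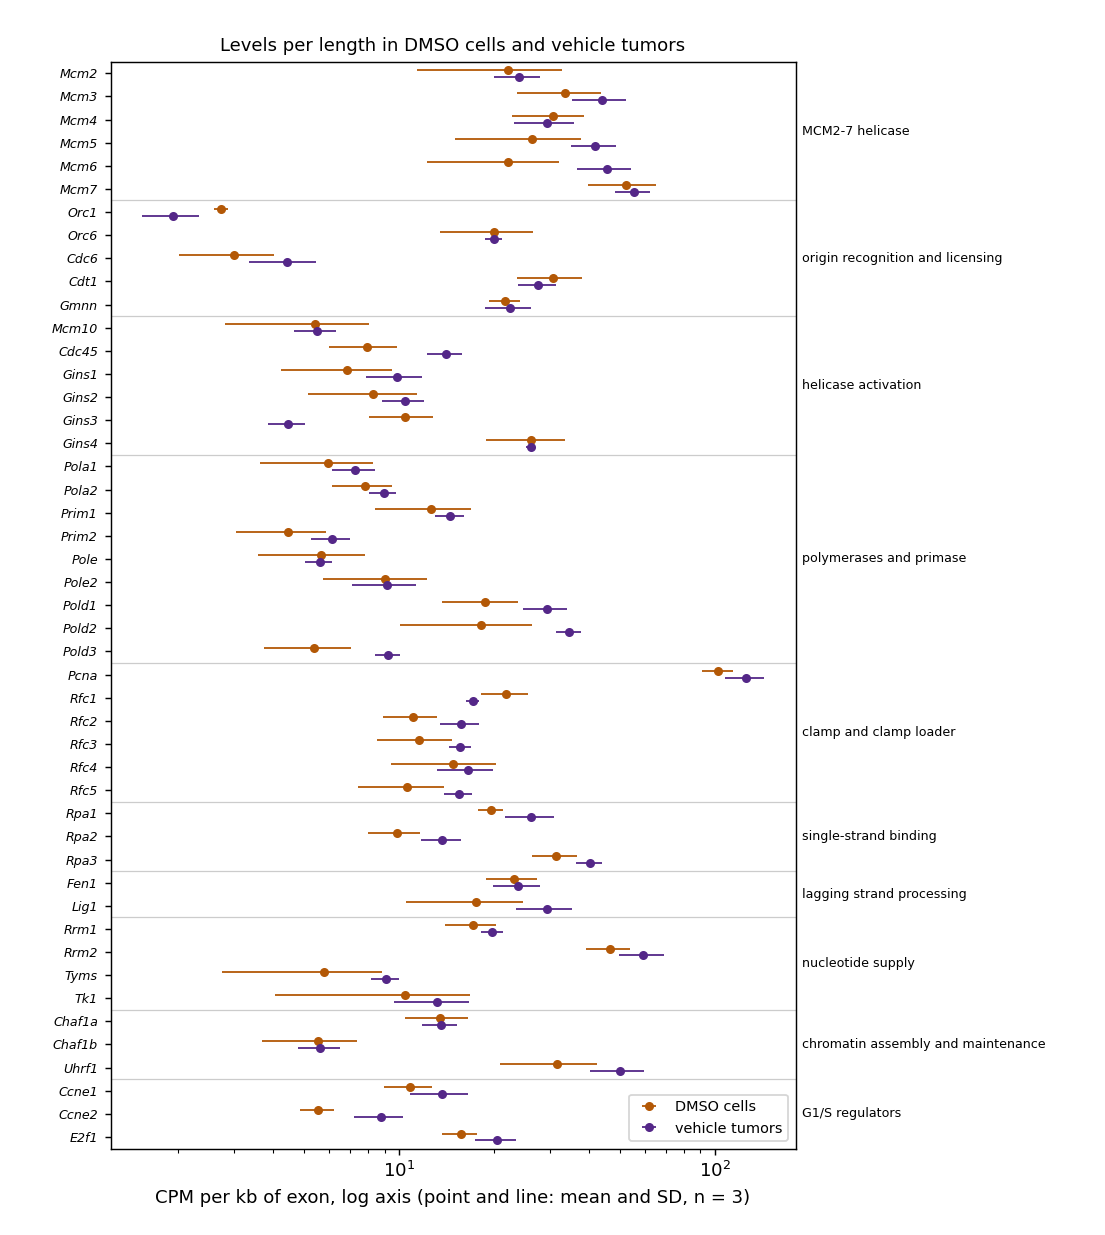
Each member's level in CPM per kb of exon (log axis; point and line, mean and SD of 3 libraries) in DMSO cells and vehicle tumors, ordered by role. Pcna is highest in both groups and Orc1 lowest. The 6 MCM2-7 subunits lie within 2.37-fold of each other in DMSO cells.

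Between the cell libraries, the members differed far more by library number than by treatment. The helicase subunit Mcm2 measured 244, 106 and 121 CPM in DMSO libraries 1, 2 and 3 and 244, 113 and 119 CPM in midostaurin libraries 1, 2 and 3. Both libraries numbered 1 were thus high, and the other 4 lay close together. Mcm6, of the same ring, measured 159.8, 76.4 and 80.5 CPM with DMSO and 162, 78.98 and 79.5 CPM with midostaurin, again with number 1 above the rest. Of the 47 members, 45 were higher in both libraries numbered 1 than in all 4 others, a pattern that 33.1% of the 14538 genes tested showed. The exceptions were Gins3, which was lower in number 1, and Orc1, whose libraries overlapped. In 29 of the 47 members the mean of number 1 was also higher by at least 0.5 on the log2 scale, against 15.1% of all genes, and in 1 member it was lower by that much, against 14.5%. The median member had a log2 ratio of 0.608, a 1.52-fold difference, and the median of all genes was -0.002. Same-numbered libraries lay close to each other and are not independent replicates of a number, so no test is given. The split was also chosen with the libraries numbered 1 known to stand apart.

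**Figure D2:**
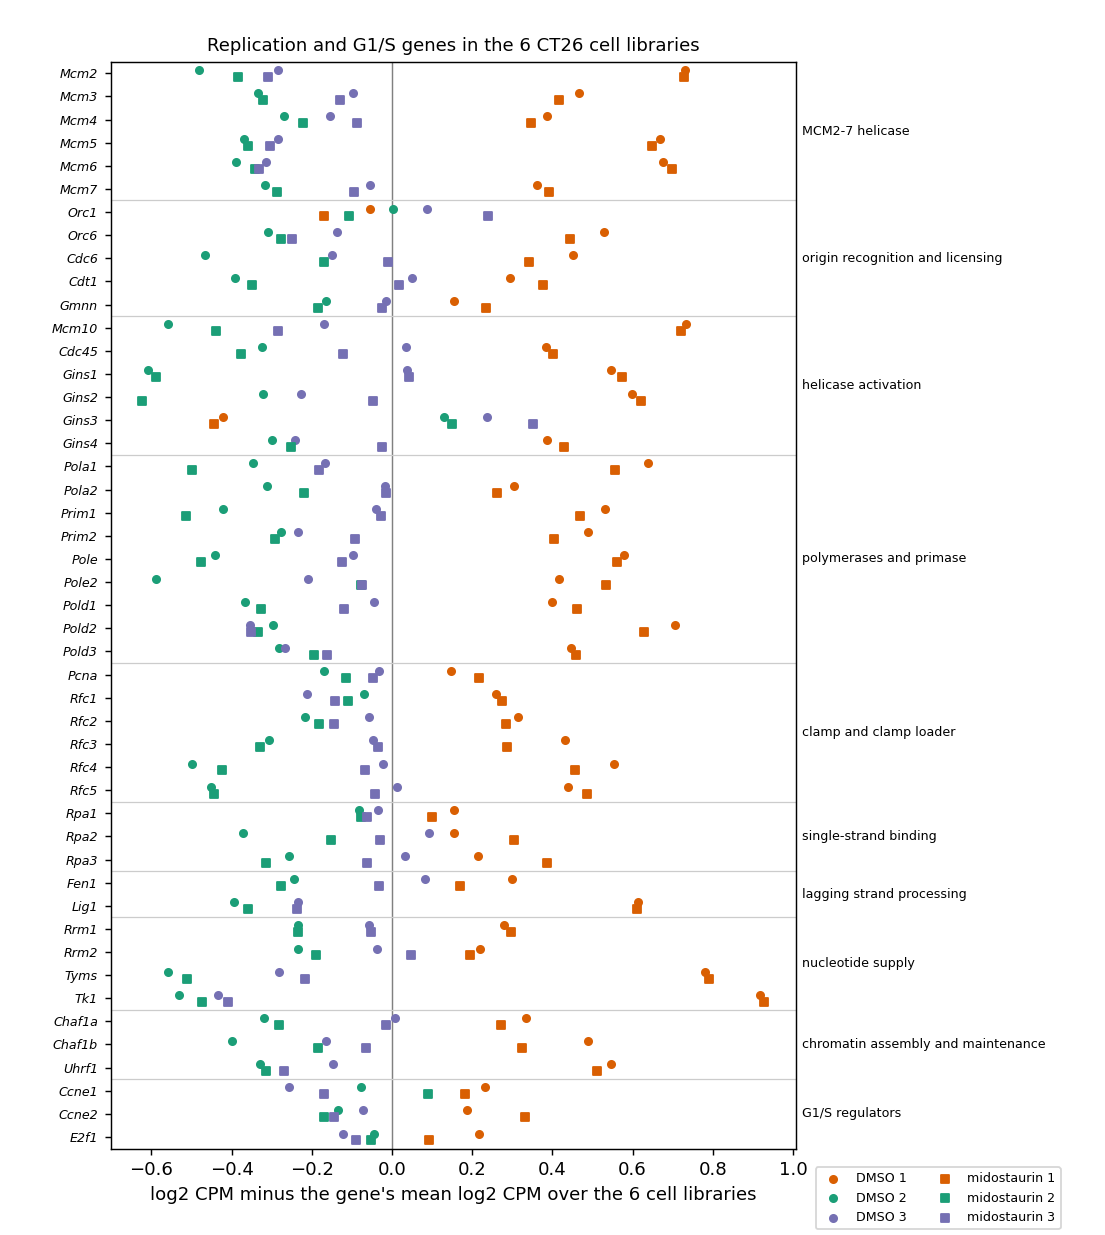
For each member, log2 CPM in each of the 6 cell libraries minus the gene's own mean (circles, DMSO; squares, midostaurin; colour, library number). The orange points of number 1 lie to the right for 45 of 47 members, with Gins3 to the left, and circles and squares of 1 colour lie close together.

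The members with the largest ratios belong to nucleotide supply and the helicase. Tk1, thymidine kinase, measured 94.3, 34.5 and 36.96 CPM with DMSO and 95.03, 35.95 and 37.6 CPM with midostaurin, 2.61-fold higher in number 1 than in numbers 2 and 3 (log2 ratio 1.38). Tyms measured 57.5, 22.8 and 27.6 CPM with DMSO and 58.01, 23.5 and 28.8 CPM with midostaurin, a 2.25-fold difference. In both genes the libraries numbered 1 stood well apart from a close group of the other 4. Mcm2 (2.13-fold), Mcm10, which helps to activate the helicase (2.12-fold), and Mcm6 (2.04-fold) followed. Mcm10 measured 65.5, 26.7 and 35.01 CPM with DMSO and 64.9, 29.1 and 32.3 CPM with midostaurin.

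The other end of the order held Gins3, Orc1, Rpa1, E2f1 and Pcna. Gins3, 1 of the 4 subunits of GINS, measured 21.4, 31.4 and 33.8 CPM with DMSO and 21.1, 31.8 and 36.6 CPM with midostaurin, so that both libraries numbered 1 were below all others, by 1.57-fold. Its GINS partners went the other way, with number 1 higher by 1.75-fold for Gins1, 1.87-fold for Gins2 and 1.52-fold for Gins4. Orc1 measured 9.26, 9.63 and 10.2 CPM with DMSO and 8.55, 8.93 and 11.3 CPM with midostaurin, with the numbers overlapping. Both Gins3 and Orc1 carry an E2F-type match. Rpa1, the large subunit of the single-strand binding protein RPA, was 1.14-fold higher in number 1, E2f1 1.18-fold and Pcna 1.21-fold. Rpa1 measured 122, 104 and 107 CPM with DMSO and 118, 104 and 105 CPM with midostaurin, and Pcna 281, 226 and 248 and 294, 234 and 246 CPM in the same order.

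By role, all 6 subunits of MCM2-7 passed the call with a median log2 ratio of 0.824, from 0.55 in Mcm4 to 1.09 in Mcm2. Of the 5 genes of origin recognition and licensing 2 passed (median 0.489). These were Orc6, another subunit of the origin complex (0.73), and Cdc6 (0.59), while Cdt1 (0.49) and its inhibitor geminin, Gmnn (0.29), were higher by less. Among the 6 genes of helicase activation 5 were called higher, with Mcm10 at 1.08, Gins2 at 0.90 and Cdc45 at 0.58. Of the 9 genes of polymerases and primase 8 were called (median 0.701), led by Pold2 of polymerase delta (1.00), Pola1 of polymerase alpha (0.89) and Pole, the catalytic subunit of polymerase epsilon (0.84), and Pola2 was not (0.42). In the clamp and its loader, Rfc3, Rfc4 and Rfc5 passed, and Pcna, Rfc1 and Rfc2 did not (median 0.491). The 3 RPA genes (median 0.337) and the 3 G1/S regulators (median 0.305) held no call. Ccne1 and Ccne2, the E cyclins, had ratios of 0.30 and 0.39.

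Of the genes that finish the lagging strand, Lig1, the replicative DNA ligase, was called (0.92), and Fen1, the flap nuclease, was not (0.34). In nucleotide supply Rrm1 (0.43) and Rrm2 (0.31), both of ribonucleotide reductase, stayed below 0.5, unlike Tk1 and Tyms. Uhrf1, which keeps DNA methylation in place at the replication fork, measured 191, 104 and 118 CPM with DMSO and 187, 105 and 109 CPM with midostaurin, 1.73-fold higher in number 1. Chaf1b, of the histone chaperone CAF-1, was called as well (0.61), and its partner Chaf1a was not (0.45). The 15 members with an E2F-type match had a median log2 ratio of 0.659 and the 23 with a window and no match 0.448, with Tk1 and Tyms, the 2 largest ratios, among the latter. Their ranges overlapped, at -0.653 to 1.03 and 0.192 to 1.384. In tumors the median log2 fold changes with midostaurin of the same sets were -0.244 and -0.228.

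The split was similar in both treatments. The median log2 ratio was 0.641 over the DMSO libraries and 0.579 over the midostaurin libraries. It was 0.488 against number 3 alone and 0.706 against number 2 alone. Of 33 other genes of the replication machinery, 16 were called higher and 1 lower (median 0.440), with Chtf18, of an alternative clamp loader, at 1.016. Of 42 other G1/S regulators and E2F targets, 18 were higher and 2 lower (median 0.466). Myc, a growth-promoting transcription factor, stood at 1.60 and Dut, which keeps uracil out of DNA, at 1.23. None of the 7 CDK inhibitors was called, and the 4 that passed the filter on low counts had a median of -0.118. Of the 28 mitosis genes 7 were called higher (median 0.268). Cdkn1a, the CDK inhibitor p21, measured 253, 288 and 296 CPM with DMSO and 249.9, 297 and 299 CPM with midostaurin, with number 1 lowest in both treatments.

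Other genes moved with the number too. The 12 colon epithelial markers summed to 41.2 and 43.1 CPM in number 1 and to 81.6 to 86.3 CPM in the others. Most of that gap was Krt20, at a mean of 10.3 CPM in number 1 and 53.2 CPM in the others. Of these markers 7 had a negative log2 ratio and 1 a positive one, Krt18, at 28.8 and 25.3 CPM. The 12 macrophage markers summed to 6.29 and 6.31 CPM against 24.2 to 27.2 CPM. Cd68 made up most of each sum, at 4.57, 23.1 and 25.4 CPM with DMSO and 5.08, 21.99 and 21.8 CPM with midostaurin, with the defining markers Adgre1 and C1qa at 0 in all 6 libraries. Of the 8 fibroblast genes 3 were called higher in number 1, Col1a1 (2.63), Col1a2 (0.61) and Col3a1 (1.70), all collagen chains, and 2 lower, Dcn (-4.98) and Pdgfra (-1.14), and the mean log2 level of the list overlapped between the numbers. Whether these have a part in the members' levels was not tested.

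Numbers 2 and 3 differed as well, a comparison added after the values were seen. Both libraries numbered 3 lay above both numbered 2 in 40 of 47 members (26.6% of all genes), with a median log2 ratio of 0.178. All 28 mitosis genes were higher in number 3, with a median of 0.571. Plk1, a mitotic kinase, stood at 0.64, and Ccnb1, cyclin B1, at 0.63, while Mcm7 stood at 0.23, E2f1 at -0.06 and Ccne1 at -0.22. The summed mitosis genes thus measured 4262, 2778 and 4068 CPM in DMSO libraries 1, 2 and 3, and the summed members 4363, 2678 and 3052 CPM. In number 3 the mitosis genes were near their level in number 1 and the replication genes near theirs in number 2.

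**Figure D3:**
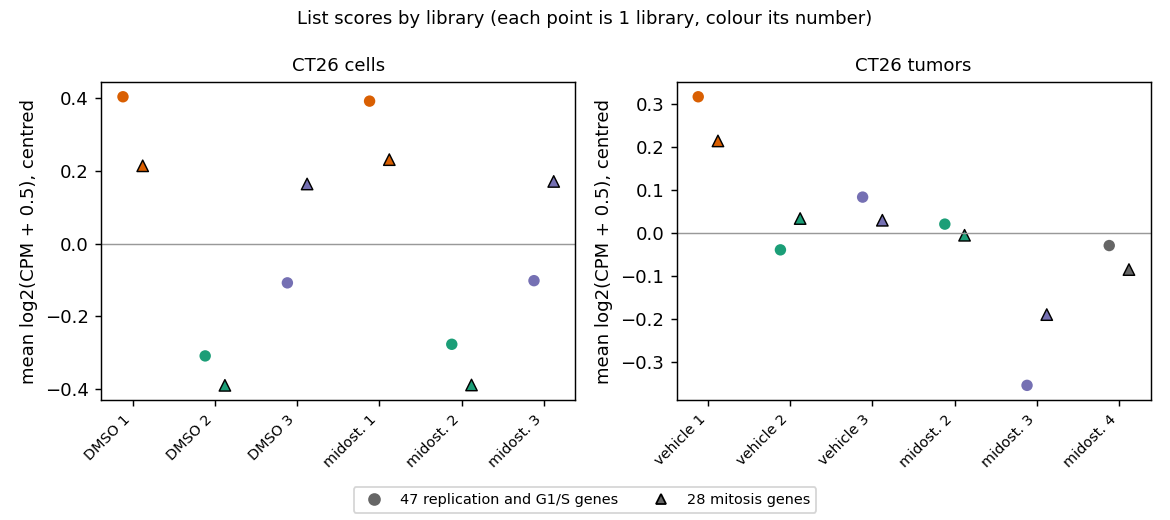
Mean log2(CPM + 0.5) over the 47 members (circles) and over 28 mitosis genes (triangles), centred within the cells (left) and the tumors (right), for each library (colour, library number). In cells both scores follow the number and not the treatment, and number 3 has a high mitosis score (0.164 and 0.171) beside a members' score below 0 (-0.108 and -0.102).

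With midostaurin, no member passed the threshold in cultured cells, and none came near it. The design asks here what the drug changed in the cancer cells themselves. Of the 47 members 27 had a positive and 20 a negative log2 fold change, with a median of 0.008 where all genes had 0.003. With edgeR's quasi-likelihood test, 0 members had a Benjamini-Hochberg adjusted p below 0.05 (0.0% of the 14538 genes did), and 0 had an unadjusted p below 0.05 (0.516% of genes). DESeq2 called 0 members too. Libraries of 1 number were taken as pairs because they deviated together, although no label pairs them. The differences within these pairs are therefore also given. The median member differed by -0.018, 0.030 and -0.010 (log2) within pairs 1, 2 and 3, and 9 members had the same sign in all 3 pairs. With the replicate number as a block the 95% interval of all 47 members lay within 0.5 of 0 on the log2 scale and that of 44 within 0.25. In that fit 2 members had an unadjusted p below 0.05, Pole2 and Fen1 (4.33% of all genes did), and the smallest adjusted p was 0.992.

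The 4 members with the smallest p in cells were Pole2, Fen1, Rpa2 and Ccne1, each with an adjusted p of 1 in edgeR. Pole2, the second subunit of polymerase epsilon, measured 37.04, 18.4 and 23.96 CPM with DMSO and 40.1, 26.3 and 26.3 CPM with midostaurin, a log2 fold change of 0.22 ± 0.31 (SE). The groups overlapped, and the gap was widest in pair 2 (0.51). With the block its interval was 0.08 to 0.42. Its exons share 245 bases on the same strand with Gm49384, so the split of its reads is uncertain. Fen1 measured 67.2, 46.1 and 57.8 CPM with DMSO and 61.5, 45.1 and 53.4 CPM with midostaurin, lower with the drug in each pair by 0.03 to 0.13. Fen1 overlaps Gm10143 on the other strand, and the strand setting of the counting is not given in the sources used here. Rpa2, the middle subunit of RPA, measured 33.95, 23.6 and 32.5 CPM with DMSO and 37.6, 27.4 and 29.9 CPM with midostaurin, and Ccne1 35.01, 28.2 and 24.9 CPM with DMSO and 33.9, 31.8 and 26.5 CPM with midostaurin. Neither kept its sign over the 3 pairs. E2f1 measured 57.7, 48.1 and 45.6 CPM with DMSO and 52.9, 47.9 and 46.6 CPM with midostaurin (log2 fold change -0.04 ± 0.12).

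In tumors most members had lower values with midostaurin, but none passed the edgeR threshold. This comparison addresses what the drug changes in the tumor, where fewer cells of a type and less RNA per cell cannot be told apart. Of the 47 members 43 had a negative log2 fold change, where 52.1% of the 16094 genes tested did, and the median was -0.241 against -0.014 over all genes. By edgeR 0 members were called lower (0.0124% of all genes were), and 10 had an unadjusted p below 0.05 in that direction (9.43% of all genes). In 13 members all 3 treated tumors lay below all 3 vehicle tumors (13.6% of all genes), and in 0 all lay above (13.5% of all genes). DESeq2 called 1 member lower, Tyms (3.56% of all genes). The share of members whose groups did not overlap, 13 of 47, was thus about 2-fold the background.

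Tyms had the smallest p. It measured 57.5, 47.5 and 57.2 CPM in vehicle tumors 1, 2 and 3 and 41.5, 35.3 and 44.8 CPM in midostaurin tumors 2, 3 and 4, with no overlap. Its log2 fold change was -0.41 ± 0.12 (SE), with an adjusted p of 0.144 in edgeR and 0.0481 in DESeq2. Rfc2, of the clamp loader, measured 112, 86.99 and 91.6 CPM with vehicle and 78, 68.8 and 80.3 CPM with midostaurin (-0.36 ± 0.12, edgeR adjusted p = 0.174). Here too every treated tumor was below every vehicle tumor, the nearest being 80.3 and 87.0. Rfc2 shares 952 exon bases with Lat2 on the other strand. Fen1 measured 65.9, 47.02 and 56.7 CPM with vehicle and 43.6, 32.6 and 45.8 CPM with midostaurin (-0.47 ± 0.17, edgeR adjusted p = 0.192). Its groups did not overlap but lay closer together. Prim2, the large subunit of primase, which lays down the RNA primers, measured 40.9, 34.1 and 31.6 CPM with vehicle and 29.2, 27.8 and 29.01 CPM with midostaurin (-0.31 ± 0.11, edgeR adjusted p = 0.199). Its treated tumors were almost equal, and the vehicle tumors spread above them.

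All 6 subunits of the helicase had negative log2 fold changes, with a median of -0.307. Mcm6 measured 253, 179 and 191 CPM with vehicle and 164, 114 and 162 CPM with midostaurin, a log2 fold change of -0.50 ± 0.19 (edgeR adjusted p = 0.206). Mcm5 measured 193, 145 and 151 CPM with vehicle and 145, 104 and 122.8 CPM with midostaurin and Mcm3 196, 140.3 and 146 CPM with vehicle and 138, 104 and 138 CPM with midostaurin. In these 3 subunits the groups did not overlap, although the vehicle tumor nearest to the treated ones was less than 2 CPM above them in Mcm3 and Mcm5. Mcm2 measured 193, 144 and 152 CPM with vehicle and 147, 104 and 153 CPM with midostaurin, Mcm4 128, 86.8 and 95.7 CPM with vehicle and 96.2, 75.5 and 99.2 CPM with midostaurin, and Mcm7 263, 206 and 251 CPM with vehicle and 223, 164 and 221 CPM with midostaurin. In these the groups overlapped, with vehicle tumor 1 highest and midostaurin tumor 3 lowest in each. Mcm7 carries the microRNA genes Mir25 and Mir93 on its own strand.

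**Figure D4:**
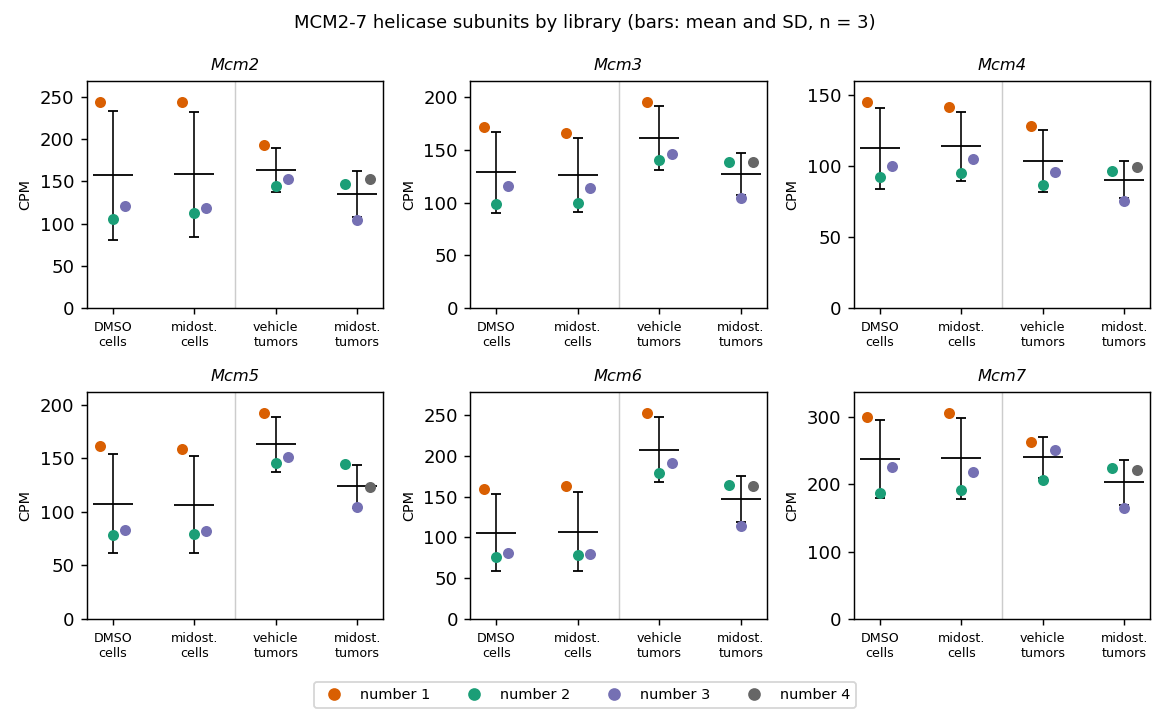
CPM of the 6 MCM2-7 subunits in each of the 12 libraries (points, coloured by number; bars, mean and SD of 3 libraries; the axes start at 0). Cells and tumors were scaled separately. In cells number 1 stands above the others in both treatments, and in tumors vehicle tumor 1 is highest and midostaurin tumor 3 lowest.

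In licensing, Cdc6 measured 27.1, 16.7 and 23.8 CPM with vehicle and 18.8, 11.2 and 18.6 CPM with midostaurin (-0.47 ± 0.25, edgeR adjusted p = 0.347). Cdt1 measured 94.2, 71.8 and 88.8 CPM with vehicle and 79.6, 53.99 and 74.9 CPM with midostaurin. Both overlapped between the groups, and the 5 licensing genes had a median of -0.234. Of the 6 helicase activation genes (median -0.144), Gins4 did not overlap (-0.16 ± 0.09), and Cdc45 had a positive value (0.09 ± 0.12). In the 9 genes of polymerases and primase (median -0.234), Pola2, Prim2, Pold2 and Pold3 did not overlap, at -0.27 ± 0.12, -0.31 ± 0.11, -0.23 ± 0.10 and -0.23 ± 0.09, and Pole2 was positive (0.10 ± 0.21). Of the clamp and its loader (median -0.144), Rfc2 and Rfc4 did not overlap. Pcna measured 340.2, 260.2 and 286 CPM with vehicle and 317, 247 and 307 CPM with midostaurin, with the groups mixed and an interval of -0.35 to 0.30 for its log2 fold change. Rfc3 was positive (0.07 ± 0.12).

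In nucleotide supply (median -0.335), Rrm1 did not overlap (-0.26 ± 0.11). Rrm2 did, measuring 190.4, 144 and 149 CPM with vehicle and 167, 117 and 149.5 CPM with midostaurin (-0.16 ± 0.16). Uhrf1 measured 253, 179.7 and 191 CPM with vehicle and 180.5, 118 and 167 CPM with midostaurin (-0.42 ± 0.19, edgeR adjusted p = 0.285). Its treated tumor 2 reached just above vehicle tumor 2. Among the G1/S regulators, Ccne1 measured 42.2, 27.6 and 37.4 CPM with vehicle and 28.2, 18.3 and 29.7 CPM with midostaurin (-0.49 ± 0.23), and Ccne2 27.7, 25.8 and 36.2 CPM with vehicle and 29.1, 14.1 and 26.4 CPM with midostaurin (-0.37 ± 0.27). E2f1 measured 72.9, 61.1 and 55.04 CPM with vehicle and 85.3, 55.05 and 64.6 CPM with midostaurin (0.12 ± 0.18) and was highest in midostaurin tumor 2. These 3 genes had intervals of -1.025 to 0.04, -1.017 to 0.29 and -0.31 to 0.54, so that differences in either direction fit within them.

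**Figure D5:**
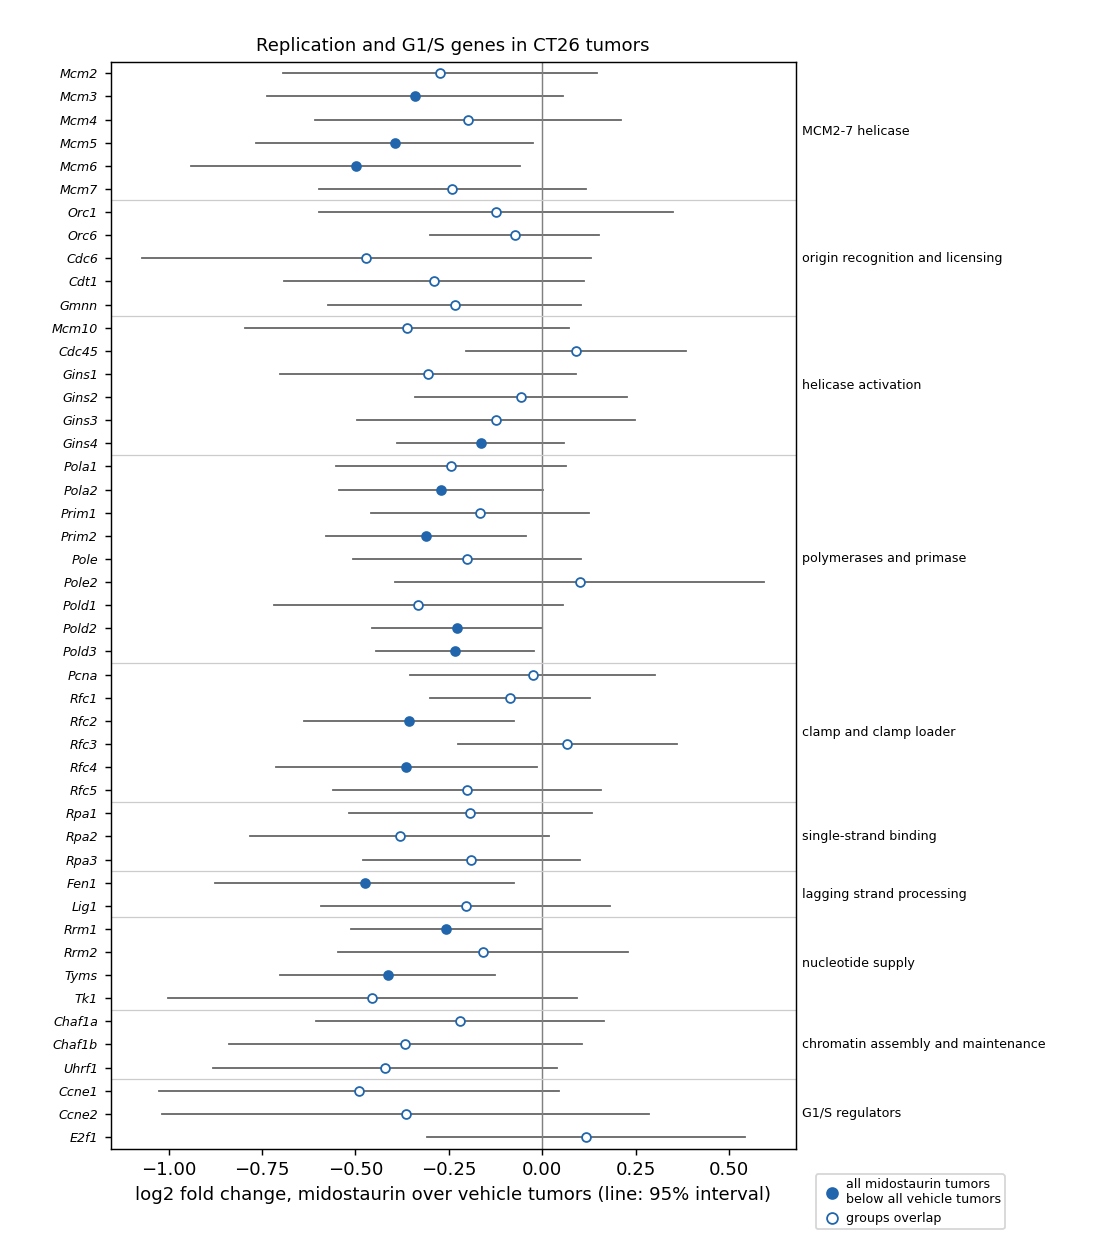
Log2 fold change of each member, midostaurin over vehicle tumors, with its 95% interval from edgeR (filled points, all 3 treated tumors below all 3 vehicle tumors; open points, overlap). Of 47 points 43 lie left of 0, with Cdc45, Pole2, Rfc3 and E2f1 to the right, and the intervals of 10 members end below 0.

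The members' extremes fell mostly in a pair of tumors. Vehicle tumor 1 was the highest of the 6 tumors in 40 members and midostaurin tumor 3 the lowest in 41. The members summed to 4596, 3537 and 3891 CPM in vehicle tumors 1, 2 and 3 and to 3728, 2836 and 3595 CPM in midostaurin tumors 2, 3 and 4, so that the other 4 tumors overlapped. Without vehicle tumor 1 and midostaurin tumor 3, an alternative added after the values were seen, 31 members were negative and 16 positive, the median was -0.057 (-0.005 over all genes), and 0 members had an unadjusted p below 0.05 in edgeR. The median was -0.146 without vehicle tumor 1 alone and -0.145 without midostaurin tumor 3 alone. Each holds the highest or the lowest value of most members, so leaving them out was bound to shrink the difference. These omissions thus do not show how far the difference rested on the tumors left out. Vehicle tumor 1 also stood apart in red cell transcripts and midostaurin tumor 3 in neutrophil markers. Vehicle tumor 2, which stood apart in keratinocyte genes, was the highest tumor in 0 members and the lowest in 3. The 12 macrophage markers summed to 1528, 1076 and 1405 CPM in vehicle tumors 1, 2 and 3. In midostaurin tumors 2, 3 and 4 they summed to 426.5, 1022 and 836.3 CPM, so that tumor 2 was lowest and not tumor 3. The part of these cells in the members' values was not tested.

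Other proliferation genes also had mostly negative values. Of the 28 mitosis genes 25 were negative (median -0.208), 0 were called by edgeR, 7 had an unadjusted p below 0.05 in that direction, and in 9 all treated tumors were below all vehicle tumors. Over all genes tested the shares were 9.43% for such a p and 13.6% for such a lack of overlap, also for the lists below. Groups without overlap, found in 13 of 47 members and 9 of 28 mitosis genes, were thus not particular to the members. Cenpf, a kinetochore gene, measured 131, 117 and 119.6 CPM with vehicle and 100.0, 88.5 and 97.1 CPM with midostaurin (-0.36 ± 0.09, edgeR adjusted p = 0.108). Top2a, which untangles replicated DNA, had -0.26 ± 0.10, while Mki67, a proliferation marker, measured 254, 271 and 274 CPM with vehicle and 271, 274 and 270.4 CPM with midostaurin, with an interval of -0.14 to 0.20 for its log2 fold change. Of 33 other replication genes 26 were negative (median -0.223) and 0 were called by edgeR, with 9 at an unadjusted p below 0.05 in that direction and 2 in the other. Rnaseh2a, of the enzyme that removes ribonucleotides from DNA, had the smallest p, at -0.41 ± 0.08 (edgeR adjusted p = 0.0869). Of 41 tested regulators and E2F targets 31 were negative (median -0.15) and 0 were called by edgeR, with 8 at an unadjusted p below 0.05 in that direction and 2 in the other. Rb1, the retinoblastoma protein that restrains E2F factors, went the other way, with 24.4, 23.2 and 27.96 CPM in vehicle tumors and 36.3, 40.8 and 36.7 CPM in treated tumors (0.59 ± 0.10, edgeR adjusted p = 0.0841). Of 7 CDK inhibitors 3 were positive and 4 negative, and 0 were called by edgeR, with 1 at an unadjusted p below 0.05 in each direction.

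The response in tumors was set against that in cells by an interaction over all 12 libraries. By edgeR 0 members passed (0.00589% of the 16965 genes tested did), 0 had an unadjusted p below 0.05 (6.08% of all genes), and DESeq2 called 0. Of the 47 members 44 had a negative difference, tumors minus cells, with a median of -0.268, while 52.0% of all genes were negative, with a median of -0.016. The 4 with the smallest p were Ccne1 (-0.56 ± 0.30, edgeR adjusted p = 0.857), Rpa2 (-0.47 ± 0.27), Fen1 (-0.39 ± 0.26) and Rfc2 (-0.34 ± 0.24). In tumors Rpa2 measured 45.9, 34.3 and 40.3 CPM with vehicle and 35.9, 24.5 and 32.1 CPM with midostaurin. In cells Rfc2 measured 86.6, 59.97 and 66.9 CPM with DMSO and 84.9, 61.4 and 63.04 CPM with midostaurin. The interval for Mcm6 was -1.61 to 0.55 and that for Tyms -1.62 to 0.72. That fit does not use the pairs of the cell libraries. With the number as a block in the cells alone, an alternative added after the values were seen, the intervals were narrower, at -1.03 to -0.02 for Mcm6 and -0.79 to -0.14 for Tyms. Of the members 6 then had an unadjusted p below 0.05, all with a negative difference, namely Mcm6, Gins4, Prim2, Pold3, Rfc2 and Tyms (6.9% of all genes in that direction), but 0 passed the adjusted threshold of edgeR, and the smallest adjusted p was 0.199. With the block in cells and tumors 5 had an unadjusted p below 0.05, all with a negative difference (8.63% of all genes in that direction). They were the same without Prim2, and the smallest adjusted p of edgeR was 0.19. That block pairs the tumors by column number, although no pairing was assumed in tumors. A difference between the responses thus passed the adjusted threshold for no member in these 3 fits, which does not show that the responses were alike. The median ranged from -0.504 without DMSO library 1 to -0.053 without midostaurin library 1.

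Vehicle tumors were compared with DMSO cells to see how the members' levels differ between growth in the animal and in culture, with both tables scaled together. The tables are 2 experiments, so that tissue and experiment cannot be told apart. By edgeR 5 members rose, Mcm6, Cdc45, Pold2, Pold3 and Ccne2 (5 of 47, against 22.2% of the 15899 genes tested), and 1 fell, Gins3 (1 of 47, against 18.1%). The members' shares were thus below the background in both directions in this fit, although the count of higher members depended on single libraries, as described below. The median log2 fold change was 0.333, against 0.026 over all genes, and 39 of the 47 members were positive, against 51.7% of all genes.

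Mcm6 measured 157, 74.9 and 78.9 CPM in DMSO cells 1, 2 and 3 and 259.9, 184 and 194 CPM in vehicle tumors (1.03 ± 0.31, edgeR adjusted p = 0.036). Cdc45 measured 34.9, 21.3 and 27.3 CPM in cells and 55.6, 42.9 and 49.6 CPM in tumors (0.82 ± 0.20, edgeR adjusted p = 0.0166). In both genes every tumor lay above every cell library. Pold2, a subunit of polymerase delta, measured 52.3, 26.1 and 25.1 CPM in cells and 72.2, 60.7 and 63.9 CPM in tumors (0.92 ± 0.29). Pold3, of the same enzyme, measured 33.6, 20.3 and 20.5 CPM in cells and 46.3, 42.4 and 38.5 CPM in tumors (0.77 ± 0.22). Ccne2 measured 22.1, 17.6 and 18.4 CPM in cells and 28.5, 26.4 and 36.8 CPM in tumors (0.65 ± 0.17). Their groups did not overlap either. Pold1, the catalytic subunit of polymerase delta, was just outside the threshold (0.64 ± 0.21, edgeR adjusted p = 0.0505). Gins3 measured 20.97, 30.7 and 33.1 CPM in cells and 13.8, 10.8 and 11.4 CPM in tumors (-1.24 ± 0.21, edgeR adjusted p = 0.00441). It fell while its partners Gins1, Gins2 and Gins4 had 0.51 ± 0.31, 0.33 ± 0.26 and -0.01 ± 0.19, none of which passed.

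Of the other subunits of the ring, Mcm2, Mcm3, Mcm4, Mcm5 and Mcm7 had log2 fold changes of 0.11 ± 0.32, 0.38 ± 0.23, -0.06 ± 0.22, 0.65 ± 0.29 and 0.07 ± 0.19, so that Mcm6 alone of the ring passed. Whether it differed from the other subunits was not tested. Pcna had 0.29 ± 0.14, Cdc6 0.55 ± 0.28 and Cdt1 -0.17 ± 0.19. Rrm2 had 0.34 ± 0.16, Tyms 0.64 ± 0.34 and Uhrf1 0.65 ± 0.25, and none of these 6 passed. Ccne1 and E2f1 had 0.33 ± 0.20 and 0.37 ± 0.15 and did not pass either. Mitosis genes had a median of -0.232, with 19 of 28 negative and 1 called lower, Cenpe, a kinetochore motor (-0.89 ± 0.16). Of the tested markers all 12 of macrophages, 9 of T cells, 6 of NK cells and 7 of endothelium were higher in tumors, so that the tumor libraries hold RNA of other cells, whose part in the members' levels was not tested. Cdk6 and Ccnd1, a kinase and its cyclin that act earlier in G1, rose in tumors (0.93 ± 0.09 and 1.18 ± 0.17), while Rrm2b, a p53-controlled subunit of ribonucleotide reductase, fell (-1.18 ± 0.15).

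The count of members higher in tumors depended on single libraries. Without DMSO library 1 edgeR called 33 members higher, and without DMSO library 2 or 3 it called 1 each. Without vehicle tumor 1 or 3 it called 0 and without vehicle tumor 2 it called 3. Without the libraries numbered 1 of both groups, an alternative added after the values were seen, it called 23 higher and 2 lower. The shares of all genes called in these fits are not given here, so these counts cannot be set against a background. Gins3 passed under every alternative run, with log2 fold changes from -1.52 to -1.09.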

How the data were processed

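The authors deposited gene counts as whole numbers, with cells and tumors in separate tables. FastQC 0.11.2, Bowtie2 2.3.4, RSEM and the mm10 build were used, per the submitters' processing notes, and per the labels' protocols the libraries were poly(A)-selected and directional. RSEM divides reads of similar or overlapping genes by an estimate, which touches the members with copies or overlaps named above. Neither annotation nor strand setting is given in the sources used here. GENCODE M21 supplied exon lengths and a symbol for 99.7% of the 55335 identifiers.

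Counts were tested with edgeR 4.0.16 (R 4.3.3) after filterByExpr and TMM scaling, with the quasi-likelihood test over all genes and a Benjamini-Hochberg adjusted p threshold of 0.05. Standard errors and 95% intervals come from the same fits. DESeq2 1.42.0, RLE and total count scaling, no filter, a replicate block (not for tumors against cells), a fit of all 12 libraries and fits without each library were alternatives. The edgeR steps were tested on simulated data with changes larger than most of those measured for the members. How well changes of the members' size are recovered was thus not tested. The members and lists were chosen with earlier results of these data known. In each comparison the members called, or else the 4 with the smallest p, are named with values per library, and for the library numbers the 5 largest ratios each way. Mcm2 to Mcm7, Pcna, Cdc6, Cdt1, Ccne1, Ccne2, E2f1, Rrm2, Tyms and Uhrf1 are always described, with up to 3 genes of each other list, Mki67 and Top2a. Where several members are listed by role they were named from their values.

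The shared numbers were checked as pairs. Across genes, DMSO and midostaurin cell libraries of 1 number deviated together from their group means, with correlations of 0.902, 0.719 and 0.702. Unlike numbers gave 0.547 and 0.528 between 2 and 3, and -0.759 to -0.742 between 1 and the others. Same numbers were taken as pairs on that ground, since no label pairs them. In tumors the 2 shared numbers gave 0.153 and -0.187, and no pairing was assumed.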

Additional observations from a re-analysis of the deposited data

How the results depend on the processing

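In cells and for the difference between the responses, the 0 calls among the members held under every alternative run. In tumors DESeq2 called 1 member lower and all other alternatives 0. The replicate block, run for the responses in cells and tumors and for their difference, changed no member's call; with it the median log2 fold change was 0.010 in cells, -0.205 in tumors (where it leaves only the 2 pairs that share a number) and -0.224 for the difference (-0.272 with the block in the cells alone). Leaving out 1 library moved the median between -0.213 and 0.242 in cells, while without both libraries of 1 number it was 0.003 to 0.004. With 1 library left out it lay between -0.319 and -0.145 in tumors and between -0.504 and -0.053 for the difference. For vehicle tumors against DMSO cells, the number of members called higher was 14 with DESeq2, 3 without the filter on low counts, 0 to 33 when 1 library was left out and 23 without the libraries numbered 1 of both groups; the number called lower was 1 to 2 when 1 library was left out and 2 without the libraries numbered 1. Apart from these library omissions and added alternatives, the cause of a changed count was not tested. The shares of all genes called under these alternatives are not given here. For the cell libraries by number, a log2 ratio of at least 1 left 6 members higher and 0 lower, and a ratio of at least 0.3 left 41 and 1. The shares of all genes at these ratios are not given here, so the counts cannot be set against a background. The median was 0.488 without the libraries numbered 2 and 0.706 without those numbered 3. No called member changed direction under any alternative run. Beyond depth, 3 libraries a group limit what these comparisons can show.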
